A study of Mus musculus with 30 samples.

Results

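Tuft cell genes are described here as 9 genes that mark the chemosensory tuft cells of the gut epithelium, Dclk1, Trpm5, Il25, Pou2f3, Alox5, Gfi1b, Ltc4s, Avil and Chat. They were chosen by name, as the rows of the merged count table that carry these 9 symbols, out of 46078 genes in all. Each symbol matched 1 row, and all 9 were among the 16261 genes that passed the filter on low counts. RNA was sequenced from scrapes of the colon epithelial layer of wild-type C57BL/6J mice in 6 groups of 5, 1 library per mouse, which compare females with males and vehicle with AOM/DSS treatment. Treated mice received azoxymethane (AOM), a carcinogen, once by intraperitoneal injection at 10 mg/kg body weight, and then dextran sodium sulfate (DSS), which injures the colon lining, at 2.5% in the drinking water in 3 cycles. They were killed 9 weeks after the injection, soon after the last DSS cycle, or at 15 weeks. Vehicle mice received saline and belong to the 9-week time point, so that at 15 weeks treatment and elapsed time cannot be told apart. Every comparison with vehicle uses the same vehicle libraries.

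Tuft cells are rare epithelial cells that sense luminal signals through a taste-like pathway, in which the cation channel Trpm5 opens after calcium release. Their identity depends on the transcription factor Pou2f3, and in the small intestine they release the cytokine Il25 and leukotrienes to call up type 2 immune cells. In the colon they are known for the marker kinase Dclk1 and for acetylcholine made by Chat. In scraped tissue the RNA of all cells is pooled, so that fewer tuft cells and less RNA per tuft cell cannot be told apart.

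Because the members moved together across libraries and Pou2f3 is a POU-domain factor that can bind octamer DNA, the 250 bases upstream of the annotated starts were searched for the octamer ATGCAAAT on both strands. RefSeq windows on GRCm38.p6 were at hand for 7 members, in 8 windows, with none for Pou2f3 or Il25. The whole octamer lay in 526 of 32851 windows of all genes (1.60%) and in 0 of the 8 member windows. Its first or last 7 letters, ATGCAAA or TGCAAAT, lay on either strand in 1977 of all windows (6.02%) and in 2 of the 8, those of Avil and Chat. A match is only a description of the letters and does not show a bound site. Both windows are shown because they hold the matches, in capitals, and the window of Trpm5, the member with the highest level, is shown as one without. The Avil window is chr10:127000459-127000708 on the plus strand, with matches that end 9 and 109 bases before the start. The Chat window is chr14:32465910-32466159 on the minus strand, with a match that ends 14 bases before the start, and the Trpm5 window is chr7:143094643-143094892 on the minus strand. All 3 are written 5′ to 3′ toward the start.
Avil: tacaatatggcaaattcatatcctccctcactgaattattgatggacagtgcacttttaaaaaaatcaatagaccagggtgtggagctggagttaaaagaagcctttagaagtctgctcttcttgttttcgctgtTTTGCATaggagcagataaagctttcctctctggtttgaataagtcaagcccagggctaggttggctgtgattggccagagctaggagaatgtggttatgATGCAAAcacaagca
Chat: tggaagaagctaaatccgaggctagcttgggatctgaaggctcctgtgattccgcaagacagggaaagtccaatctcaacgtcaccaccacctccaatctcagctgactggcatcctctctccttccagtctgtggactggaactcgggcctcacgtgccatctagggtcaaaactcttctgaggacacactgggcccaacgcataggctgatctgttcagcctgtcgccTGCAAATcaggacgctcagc
Trpm5: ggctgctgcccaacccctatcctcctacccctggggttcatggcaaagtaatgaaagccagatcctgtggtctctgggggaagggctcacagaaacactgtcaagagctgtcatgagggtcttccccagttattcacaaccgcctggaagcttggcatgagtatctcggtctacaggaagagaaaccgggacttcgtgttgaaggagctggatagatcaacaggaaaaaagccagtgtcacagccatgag

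The libraries held 9265804 to 30806392 counts on genes, with a median of 24697064.5, and the lowest was female vehicle replicate 5. Levels across libraries are given as CPM, counts scaled to the library total with TMM factors, and levels between genes as the authors' TPM, which allow for transcript length. A gene was called where its adjusted p was under 0.05 and its log2 fold change beyond 0.4 in either direction. Shares of all genes called are those of edgeR, the main test, also where calls of members by DESeq2 stand beside them. DESeq2 called more of all genes in some comparisons. Across the 60 pairs of libraries within a group the Spearman correlation was 0.936 to 0.976, and 0 pairs were identical.

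One library stood apart in these genes. Male vehicle replicate 1 held 11 counts of Trpm5, or 0.356 CPM, against 7.27 to 27.1 CPM in the other 4 male vehicle libraries. Their median was 54.0-fold higher. The same library was the lowest of all 30 for 7 members, with Dclk1 at 4.02, Avil at 2.11, Alox5 at 1.49, Pou2f3 at 0.292, Chat at 0.0972 and Gfi1b at 0.0324 CPM. For Gfi1b that was 1 count, and for Chat 3 counts. Ltc4s, at 0.875 CPM, and Il25, at 0.0972 CPM, lay within the range of the other 29 libraries.

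Markers of the deeper colon wall were high in that library. The summed CPM of 8 smooth muscle genes was 5410, against 2.55 to 215 in the other 29 libraries. Over 10 mesenchyme genes it was 1240, against 31.1 to 500, over 12 enteric neuron genes 52.8, against 5.61 to 19.5, and over 5 enteric glia genes 8.29, against 0.296 to 3.47. The enteroendocrine sum was the lowest of all, 108 CPM, while the sum of 10 general epithelial genes, 16000 CPM, lay inside the range of the others, 13300 to 23700. Genes of epithelial identity and position differed too: Cdx2, an intestinal transcription factor among those 10, was at 3.66 CPM, against 181 to 257 as the medians of the other 5 groups, and Hoxd13, from the distal colon list, at 256 CPM, against group medians of 0 to 18.7. The distal colon list did not move as a whole: its sum, 2520 CPM, lay inside the range of the others, 1290 to 4130. Within it Hoxb13 was also high, at 398 CPM against group medians of 37.5 to 306. B4galnt2 was low, at 68.8 CPM against group medians of 256 to 571. The sum of 8 proximal colon genes was the second lowest of all, 1060 CPM. The single genes named here were chosen after their values were seen. Male vehicle replicate 5 had the next highest mesenchyme sum, 500 CPM, and the next lowest sum over the 9 tuft cell genes, 30 CPM. The part of this tissue makeup in the tuft cell values was not tested, and the fitted differences that use the male vehicle group are given with and without replicate 1 where it moved them most.

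The members spanned a wide range of levels per length. Over the 10 vehicle libraries the median TPM was 3.31 for Trpm5, 2.29 for Avil, an actin-bundling protein of the tuft, and 1.76 for Dclk1. It was 1.23 for Alox5, the lipoxygenase that begins leukotriene synthesis, and 1.07 for Ltc4s, which makes leukotriene C4. Lower still were Pou2f3 at 0.616, the zinc-finger repressor Gfi1b at 0.21, Chat at 0.209 and Il25 at 0.0912. Each gene exceeded the next one down in 22 to 29 of the 30 libraries, except Gfi1b, which exceeded Chat in 14. Gfi1b and Chat were therefore not separated by level, whereas the order of the others held in most libraries.

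The genes lie on 8 chromosomes of GRCm38, and some share sequence with neighbours. Trpm5 (ENSMUSG00000009246, chr7:143069153-143094642, minus strand) overlaps Tssc4 on the other strand, and Avil (ENSMUSG00000025432, chr10:127000709-127020994, plus strand) overlaps Tsfm likewise. These neighbours reached 28.7 and 26.9 CPM, as much as the members themselves. Chat (ENSMUSG00000021919, chr14:32408203-32465909, minus strand) holds Slc18a3 on its own strand, which reached 0.446 CPM, and Ltc4s (ENSMUSG00000020377, chr11:50236469-50238616, minus strand) overlaps the antisense gene Gm26542, which reached 0.997 CPM. The library kit keeps strand, but the strand setting of the counting is not given in the sources used here, so reads from the shared stretches cannot be assigned with certainty. Dclk1 (ENSMUSG00000027797) spans chr3:55242364-55539068 on the plus strand, Alox5 (ENSMUSG00000025701) chr6:116410077-116461178 on the minus strand, and Pou2f3 (ENSMUSG00000032015) chr9:43123939-43210369 on the minus strand. Gfi1b (ENSMUSG00000026815) lies at chr2:28609450-28621982 on the minus strand and Il25 (ENSMUSG00000040770) at chr14:54932695-54935837 on the plus strand.

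Among the transcription factors, Pou2f3 averaged 3.79 ± 0.598 CPM (SD, n = 5) in female and 2.01 ± 1.13 in male vehicle mice. At 9 weeks it averaged 2.79 ± 0.561 in females and 2.34 ± 0.54 in males, and at 15 weeks 3.63 ± 1.26 and 3.45 ± 1.7. The sexes overlapped at both treated times but not in vehicle, where the 5 females, 3.11 to 4.46 CPM, all lay above the 5 males, 0.292 to 3.09. Gfi1b was read from few counts, 1 to 29 per library, and was 0.809, 0.892, 0.629, 1.1 and 0.855 CPM in female vehicle and 0.0324, 1.24, 0.563, 0.516 and 0.373 in male vehicle libraries. At 9 weeks it was 0.296, 0.3, 0.282, 0.766 and 1.4 CPM in females and 0.106, 0.701, 0.279, 0.245 and 0.244 in males, so that 7 of the 10 libraries lay at or under 0.3. At 15 weeks it was 0.814, 1.15, 0.603, 0.892 and 0.38 CPM in females and 0.949, 0.694, 0.724, 0.964 and 0.958 in males. The 5 males at 15 weeks were close to each other, and 4 of the 5 males at 9 weeks lay below all of them.

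Trpm5, the channel of the sensing pathway, had 23.4, 33.5, 31.2, 34.5 and 28.1 CPM in female vehicle and 0.356, 27.1, 21.7, 16.8 and 7.27 in male vehicle libraries. At 9 weeks the values were 16.9, 16.2, 13.6, 20.6 and 31.5 CPM in females and 16.7, 14.1, 18.3, 13 and 10.4 in males. At 15 weeks they were 23.8, 26.6, 18.7, 28.9 and 19.8 CPM in females and 26.0, 16.6, 36.0, 20.1 and 18.5 in males. In females, 4 of the 5 libraries at 9 weeks lay below all 5 vehicle libraries, and replicate 5 lay among them. The male vehicle values alone ran from under 1 to 27.1 CPM.

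Avil was 11.6, 18.0, 15.6, 20.6 and 15.1 CPM in female vehicle and 2.11, 15.7, 11.8, 9.36 and 4.77 in male vehicle libraries. At 9 weeks it was 11, 14.5, 9.36, 12.4 and 20.8 CPM in females and 14.9, 9.11, 15.0, 11.9 and 8.54 in males. At 15 weeks it was 14.6, 17.3, 12.4, 13.2 and 13.2 CPM in females and 16.6, 13, 21.8, 11.6 and 21.4 in males. The males at 15 weeks overlapped vehicle males at 11.8 and 15.7 CPM.

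The leukotriene enzymes differed from each other. Alox5 was 6.61, 7.99, 8.44, 7.95 and 5.88 CPM in female vehicle and 1.49, 10.9, 7.51, 4.85 and 3.1 in male vehicle libraries. At 9 weeks it was 5.45, 4.97, 4.15, 5.92 and 9.45 CPM in females and 6.16, 5.61, 6.59, 4.29 and 3.87 in males. At 15 weeks it was 6.13, 5.35, 5.43, 9.02 and 6.27 CPM in females and 11, 7.87, 16.9, 10.3 and 7.63 in males. All 5 males at 15 weeks lay above all 5 males at 9 weeks, and 4 of the 5 vehicle males lay below them. Ltc4s varied little between groups, with means of 1.16 to 1.68 CPM and SDs of 0.361 to 0.812.

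Dclk1 averaged 31.9 ± 7.33 CPM (SD, n = 5) in female and 18.2 ± 10.4 in male vehicle mice, 24.8 ± 4.2 and 17.4 ± 2.72 at 9 weeks, and 28.0 ± 3.48 and 30.4 ± 11.4 at 15 weeks. Chat averaged 1.81 ± 0.449 CPM in female and 0.911 ± 0.75 in male vehicle mice, 0.923 ± 0.455 and 0.723 ± 0.51 at 9 weeks, and 1.39 ± 0.581 and 1.29 ± 0.899 at 15 weeks. In females at 9 weeks, 4 of the 5 Chat values, 0.598 to 0.851 CPM, lay below the lowest vehicle value, 1.09. Il25, the cytokine, had 0 to 13 counts per library and 3 or fewer in 11 of the 30, so that a change in it was detectable at this depth only if large.

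**Figure D1:**
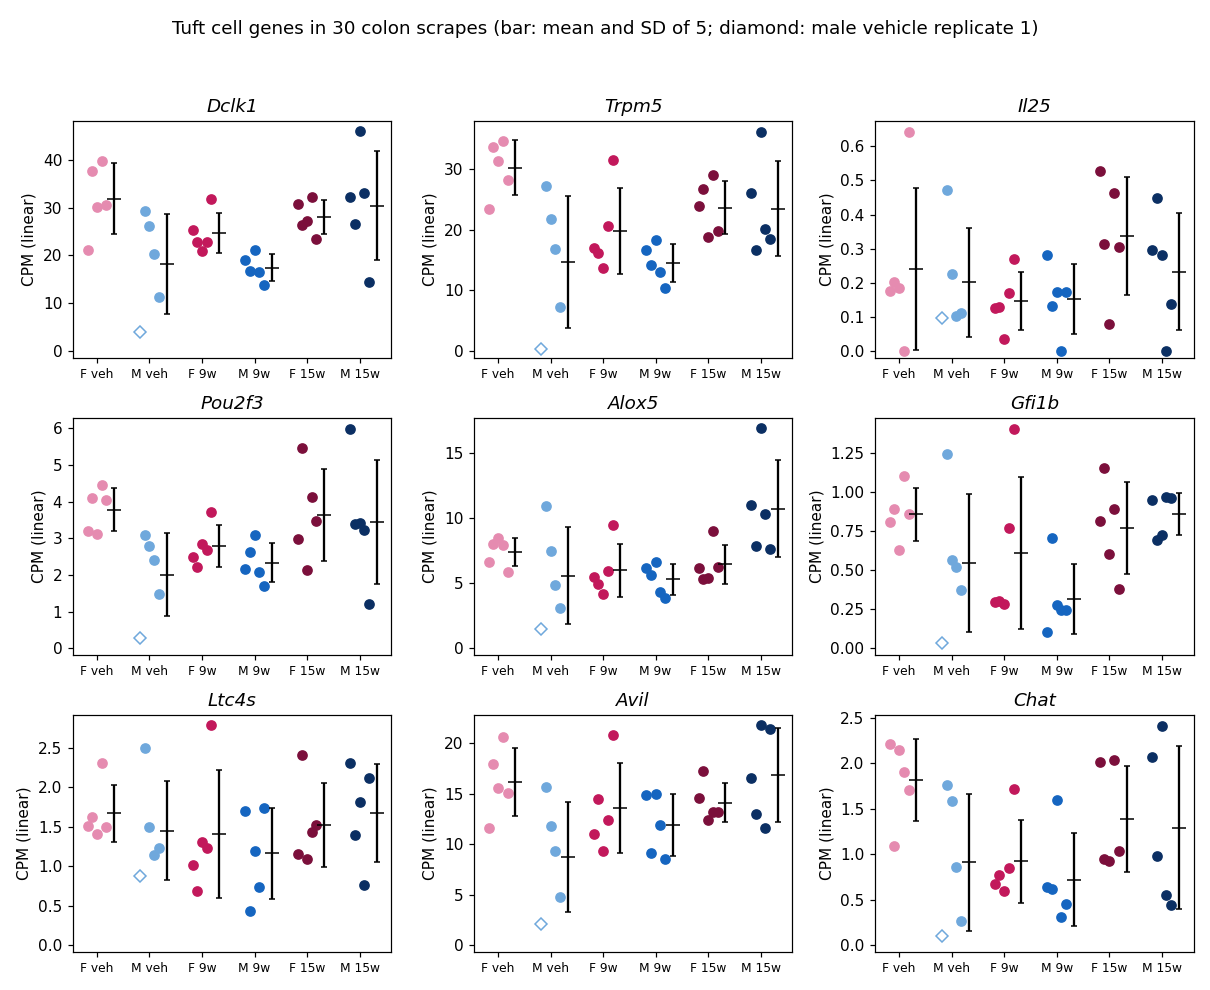
Each panel plots the CPM of 1 gene on a linear axis, with 1 point per library in the 6 groups (F, females, M, males, veh, vehicle, 9w and 15w, weeks of AOM/DSS) and the mean and SD of the 5 libraries beside them. Male vehicle replicate 1, drawn as an open diamond, is the lowest of the 30 libraries in 7 panels, and Trpm5 reads 0.356 CPM there.

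The first question was whether AOM/DSS changed these genes at 9 weeks. With the sexes averaged, 0 of the 9 members were called by the edgeR quasi-likelihood test, 0 had an unadjusted p under 0.05, and DESeq2 called 0. Among all genes tested, 12% were called in the same comparison. The members' median log2 fold change was -0.28, against -0.024 over all genes. Gfi1b (-0.65 ± 0.38 SE, adjusted p = 0.27) and Chat (-0.65 ± 0.40, adjusted p = 0.288) had the lowest values and Trpm5 was at -0.31 ± 0.33 (adjusted p = 0.582). Without male vehicle replicate 1 the errors shrank, Trpm5 was at -0.47 ± 0.19 (adjusted p = 0.0963) and Gfi1b at -0.81 ± 0.33 (adjusted p = 0.0979), 3 members had an unadjusted p under 0.05, and 0 were called. Without male vehicle replicates 1 and 5 together, a choice made after the data were seen, Trpm5 was called at -0.60 (adjusted p = 0.0147).

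In females at 9 weeks 0 members were called or had an unadjusted p under 0.05 in edgeR, and DESeq2 called 0, against 4.05% of all genes called. All 9 lay below 0, with a median of -0.44, against -0.01 for all genes, and Chat was the lowest at -0.98 ± 0.56 (adjusted p = 0.397) and Trpm5 at -0.61 ± 0.46 (adjusted p = 0.561). In males 0 members were called by either tool or had an unadjusted p under 0.05 in edgeR, against 9.03% of all genes called, and the median was -0.07. Gfi1b was the lowest in males at -0.79 ± 0.55 (adjusted p = 0.391), and Trpm5 was at -0.01 ± 0.46 (adjusted p = 0.992). The male median was -0.33 without male vehicle replicate 1, with Trpm5 at -0.33 ± 0.28 (adjusted p = 0.561) and Gfi1b, the 1 member with an unadjusted p under 0.05, at -1.10 ± 0.48 (adjusted p = 0.188). The interaction of sex with 9 weeks of treatment called 0 members and 0.0% of all genes in edgeR, with 0 members at an unadjusted p under 0.05 and 0 called by DESeq2. Its median over the members was 0.31 with all libraries and 0.05 without male vehicle replicate 1, where also 0 members had an unadjusted p under 0.05.

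At 15 weeks against vehicle, with the sexes averaged, 0 members were called by edgeR or DESeq2 and 0 had an unadjusted p under 0.05 in edgeR, while 11.3% of all genes were called. The members' median was 0.28, against -0.025 over all genes. It was 0.15 without male vehicle replicate 1, where Ltc4s (-0.03) and Chat (-0.08) lay below 0. Avil and Alox5 were both at 0.38 ± 0.23 (adjusted p = 0.238 and 0.26). Trpm5 was at 0.17 ± 0.33 (adjusted p = 0.751) with all libraries and at 0.01 ± 0.19 without male vehicle replicate 1.

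In males 1 of the 9 members was called, against 12.5% of all genes, so the share of members called did not exceed the background. That gene was Avil, at 0.96 ± 0.32 (adjusted p = 0.0467). Alox5 was at 0.95 ± 0.33 (adjusted p = 0.054), Dclk1 at 0.75 ± 0.32 (adjusted p = 0.106) and Trpm5 at 0.68 ± 0.46 (adjusted p = 0.323), and all 9 members lay above 0 with a median of 0.68, or 0.37 without male vehicle replicate 1. DESeq2 called 2, Avil (adjusted p = 0.0244) and Alox5 (adjusted p = 0.0299). The call for Avil lay near the threshold and depended on single libraries of both groups. Without male vehicle replicate 1 Avil was at 0.71 ± 0.27 (adjusted p = 0.114) and 0 members were called. The call was also lost without any 1 of male vehicle replicates 4 and 5 and male 15-week replicates 1, 3 and 5. Without male vehicle replicate 2, Avil, Alox5 and Dclk1 were all called, and Avil and Alox5 were called without male vehicle replicate 3 or male 15-week replicate 2.

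In females at 15 weeks 0 members were called by edgeR or DESeq2 and 0 had an unadjusted p under 0.05 in edgeR, against 0.117% of all genes called. The median was -0.19, with Trpm5 at -0.35 ± 0.46, Alox5 at -0.20 ± 0.33 and Avil at -0.20 ± 0.32. The test of the difference between the sexes' responses called 0 members and 0.00615% of all genes in edgeR, and 0 members in DESeq2. Unadjusted p was under 0.05 there for 3 members, Avil (1.15 ± 0.46, adjusted p = 0.538), Alox5 (1.15 ± 0.47, adjusted p = 0.549) and Dclk1 (0.93 ± 0.44, adjusted p = 0.64). Without male vehicle replicate 1 Avil and Alox5 were both at 0.90, with adjusted p of 0.975 and 0.982. The sexes were thus not shown to respond differently in these genes.

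From 9 to 15 weeks of AOM/DSS, a comparison that uses no vehicle library for its difference, all 9 members lay above 0 with a median of 0.49, against -0.021 over all genes. None of the 9 was called by edgeR or DESeq2. Of all genes edgeR called 4.32%, and DESeq2 called more. Unadjusted p was under 0.05 for 3, Alox5 (0.56 ± 0.24, adjusted p = 0.144), Gfi1b (0.90 ± 0.38, adjusted p = 0.152) and Dclk1 (0.49 ± 0.22, adjusted p = 0.18). Il25 was at 0.93 ± 0.53 (adjusted p = 0.279) and Trpm5 at 0.48 ± 0.33 (adjusted p = 0.374). Single libraries decided whether any were called. Without female 9-week replicate 5, whose values of these genes were high for its group, Gfi1b was called at 1.19 (adjusted p = 0.0326) and Alox5 at 0.69 (adjusted p = 0.0456). With the mesenchyme level as a covariate the median was 0.02, Dclk1 (-0.19) and Trpm5 (-0.22) were below 0, and 0 members had an unadjusted p under 0.05. Over all genes the calls went from 703 to 0 in that fit. The mesenchyme level differed between the compared times, so the fit cannot separate it from time. The vehicle libraries enter only through the common spread, and without male vehicle replicates 1 and 5 Dclk1 (adjusted p = 0.0416) and Alox5 (adjusted p = 0.0474) were called.

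The direction of these differences depended on the scale. On log2(TPM + 0.1), tested with limma after the data were seen, the median of all tested genes itself moved by -0.605 from 9 to 15 weeks, and that of the 9 members by -0.07, with 3 members above 0 and 6 below. At 9 weeks against vehicle the TPM medians were 0.287 for all genes and 0.13 for the members. TPM is not adjusted for such shifts between libraries as TMM-scaled CPM is. The members' median was thus below that of all genes at 9 weeks and above it from 9 to 15 weeks on both scales, although at 9 weeks Avil (0.48) and Trpm5 (0.36) lay above the median of all genes on TPM, and Avil also on CPM (0.10). By limma 0 members were called on TPM in any of the 12 comparisons, and 3 of the 108 member tests had an unadjusted p under 0.05. From 9 to 15 weeks, where the median of all genes itself moved by -0.605, most of all genes tested were called on TPM. The 0 calls of members there thus depend on that shift of scale and are not comparable with the CPM result.

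Between the sexes in vehicle mice, all 9 members were lower in males, with a median of -0.81, against 0.012 over all genes. Neither edgeR nor DESeq2 called any of them. Of all genes edgeR called 0.252%, and DESeq2 called more. Unadjusted p was under 0.05 for 4, Avil (-0.89 ± 0.32, adjusted p = 0.138), Dclk1 (-0.81 ± 0.32, adjusted p = 0.162), Pou2f3 (-0.91 ± 0.39, adjusted p = 0.201) and Trpm5 (-1.05 ± 0.46, adjusted p = 0.22). The values were closer to 0 without male vehicle replicate 1, with a median of -0.56, 8 members below 0 and Il25 at 0.10, and 3 members had an unadjusted p under 0.05. Trpm5 was then at -0.73 ± 0.28 (adjusted p = 0.433) and Avil at -0.64 ± 0.27 (adjusted p = 0.453). Without male vehicle replicates 1 and 5 the median was -0.34, with 6 members below 0 and 0 at an unadjusted p under 0.05. The mesenchyme sum moved with this contrast: its median was 46.9 CPM in female and 193 in male vehicle libraries, and 164 in the 4 males without replicate 1. With the mesenchyme level as a covariate the members' median was -0.14, with 6 members below 0, and the number at an unadjusted p under 0.05 went from 4 to 0. Over all genes the calls in this contrast went from 41 to 8 in that fit. The mesenchyme level differed between the compared groups, so the fit cannot separate it from sex.

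At 9 weeks males and females differed in 0 members by either tool, with 0 at an unadjusted p under 0.05 in edgeR, against 0.0492% of all genes called, and the members' median was -0.27. At 15 weeks 0 members were called by either tool, against 0.221% of all genes, with a median of 0.12. Alox5 alone had an unadjusted p under 0.05 at 15 weeks, higher in males at 0.74 ± 0.33 (adjusted p = 0.357). All 5 males, 7.63 to 16.9 CPM, lay above 4 of the 5 females.

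**Figure D2:**
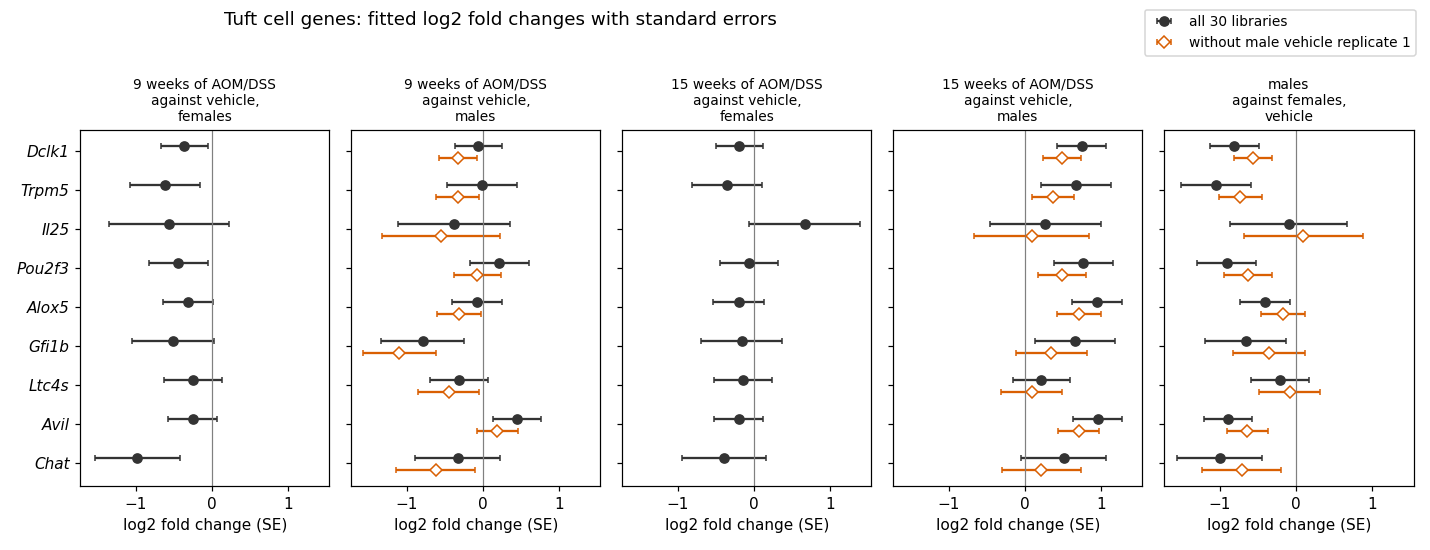
Points are fitted log2 fold changes (first group over second) and bars their standard errors, for the 9 genes in 5 comparisons, with all 30 libraries (filled) and, where male vehicle libraries enter, without replicate 1 (open diamonds). In males at 15 weeks all 9 filled points lie above 0, and Avil, at 0.96, comes down to 0.71 without that library.

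The members varied together from mouse to mouse. Over the 36 pairs of members, Pearson's r of log2 CPM across the 30 libraries ran from 0.25 to 0.92 with a median of 0.70, and 28 pairs passed an adjusted p of 0.05 in a permutation test. The closest pair was Dclk1 and Trpm5, with r = 0.92 and Spearman's rho = 0.87, each with an adjusted permutation p of 3e-05 and 4.5e-05, the raw p being the smallest the permutations can give. Without the 2 libraries farthest from the median of Dclk1, r was 0.85. Trpm5 with Avil had r = 0.91 (rho = 0.76, adjusted permutation p = 3e-05 and 4.5e-05, r = 0.75 without 2 libraries). Trpm5 and Alox5 had r = 0.83 (rho = 0.77, adjusted permutation p = 3e-05 and 4.5e-05, 0.74 without 2 libraries).

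Part of this came from male vehicle replicate 1. Without it the median over the 36 pairs was 0.52, and 0.44 when group means were also removed. Some pairs stayed close within groups: Trpm5 and Alox5 had r = 0.92, Trpm5 and Avil 0.85, and Dclk1 and Trpm5 0.82. Ltc4s and Il25 followed the others least, with median r of 0.42 and 0.29 against the other 8 members. Chat, which enteric neurons also express, ran with Trpm5 (r = 0.79, rho = 0.83, adjusted permutation p = 3e-05 and 4.5e-05, r = 0.80 without 2 libraries) and against the summed enteric neuron markers (r = -0.75, rho = -0.69, adjusted permutation p = 0.000122 and 0.000611, r = -0.67 without 2 libraries). The sign against the neuron markers was shared by all 9 members, with r from -0.83 to -0.38, and 8 passed an adjusted permutation p of 0.05.

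**Figure D3:**
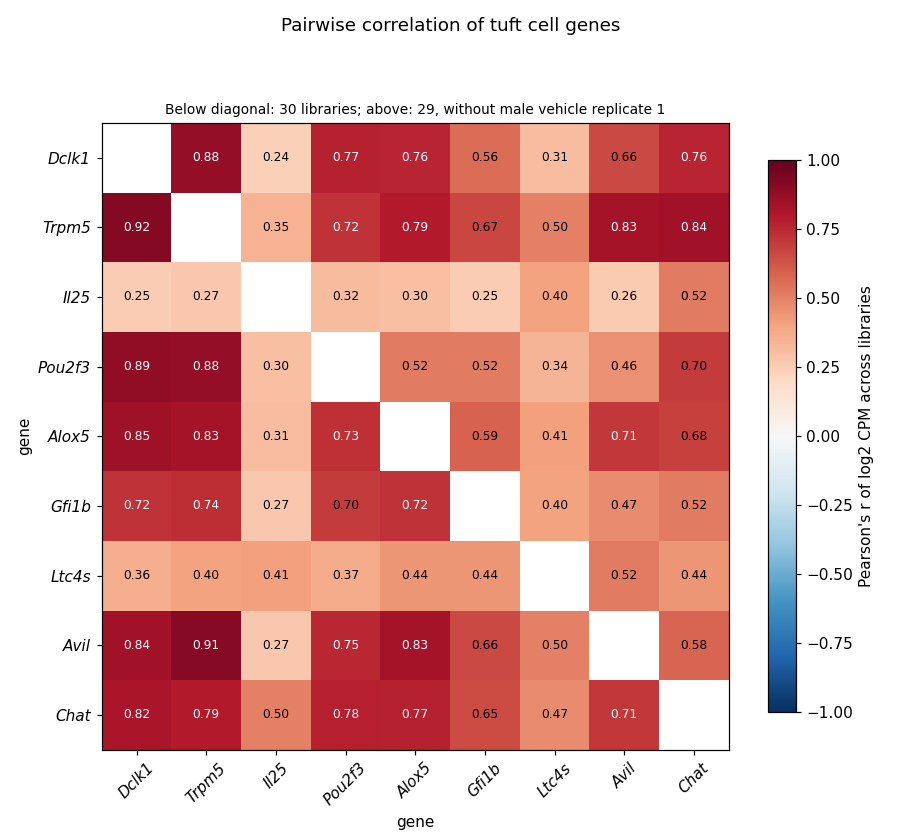
Each cell gives Pearson's r of log2 CPM between 2 tuft cell genes, over 30 libraries below the diagonal and over the 29 without male vehicle replicate 1 above it. Dclk1 and Trpm5 have r = 0.92 below and 0.88 above, while the rows of Il25 and Ltc4s are pale on both sides.

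The genes whose pattern was most like the mean of the 9 over the 30 libraries were Pik3r5 (r = 0.95), Sh2d6 (0.95), Sh2d7 (0.94), Matk (0.92) and Ly6g6f (0.92). Sh2d7, Pik3r5, Sh2d6, Rgs13 and Matk led in that order without male vehicle replicate 1, at 0.93, 0.92, 0.91, 0.84 and 0.84. Of 34 further genes listed as tuft cell genes and tested, 11 were among the 100 nearest of 16252, and their median r was 0.56, against -0.05 over all genes. These r are descriptions without a test, and the points share library composition. Of the 34, 11 had r below 0, such as Itpr3 (-0.50) and Lrmp (-0.58). Itpr3 had 286 CPM in male vehicle replicate 1, where Rgs13, a regulator of G protein signalling, had 0.0648. Summed over each list, the eicosanoid and histamine enzymes had r below 0 with all 9 members (-0.58 to -0.33, 8 at an adjusted permutation p under 0.05), as had the taste-type sum (-0.49 to -0.01, 1 under 0.05), while the other tuft cell markers had r above 0 with all 9 (0.23 to 0.84, 8 under 0.05). Itpr3 made up most of the taste-type sum, 286 of 295 CPM in male vehicle replicate 1. In female vehicle libraries its median was 205 CPM and that of the sum 246. Taken singly against the mean of the 9, Itpr3 alone of the tested taste-type genes lay below 0. Rgs13 (0.91), Ffar3 (0.87), Gnat3 (0.82), Plcg2 (0.71), Plcb2 (0.59), Sucnr1 (0.58) and Tas1r3 (0.26) lay above. The other sums also rested on few genes. In female vehicle libraries Pla2g4a had a median of 39.0 CPM, and the eicosanoid and histamine sum 60.7. Cd24a and Krt18 had 580 and 425 CPM there, and the sum of other tuft cell markers 1530. Without male vehicle replicate 1, Hpgds (0.02) and Ptgs1 (0.09) lay above 0 against the mean of the 9. Alox5ap (-0.02), Hdc (-0.45), Tbxas1 (-0.52) and Pla2g4a (-0.54) lay below.

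Levels of the members also followed the makeup of the scrape. Against the summed mesenchyme markers r was below 0 for all 9 members, from -0.83 for Dclk1 to -0.24 for Ltc4s and Il25, and 7 of 9 passed an adjusted permutation p of 0.05 over the 171 relations computed. Dclk1 had r = -0.83 (rho = -0.83, adjusted permutation p = 0.000122 and 0.00019, r = -0.76 without 2 libraries), and Trpm5 r = -0.72 (rho = -0.74, adjusted permutation p = 0.000122 and 0.000285, r = -0.68 without 2 libraries). Without male vehicle replicate 1 the 2 genes had r of -0.79 and -0.73. Against the sum of 8 genes known from the proximal colon r was above 0 for all 9, up to 0.73 for Chat, and 8 of 9 passed. Trpm5 had r = 0.62 with that sum (rho = 0.79, adjusted permutation p = 0.00019 in both, r = 0.81 without 2 libraries). Cyp2c55 and Mptx1 made up most of the proximal sum, with medians of 4030 and 1990 CPM in female vehicle libraries, where the sum was 5960. Hoxb6, Hoxb7 and Hoxb8 had 60.2, 19.1 and 23.7 CPM in the same libraries, so the sum says little about these position genes. Against the general epithelial sum 0 of 9 passed, with r from 0.07 to 0.38.

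These marker sums differed between the groups. The median proximal colon sum was 5960 CPM in female and 4090 in male vehicle libraries, 1970 and 1820 at 9 weeks, and 4430 and 4050 at 15 weeks. Not all of its genes moved that way. The median of Hoxb6 was 60.2 CPM in female and 5.99 in male vehicle libraries, and 7.33 and 8.0 at 9 weeks. Pla2g2f was at 20.6 and 49.7 CPM in vehicle and at 43.2 and 53.3 at 9 weeks. At 9 weeks 1 of the 8 proximal genes, Mptx1, was called lower than vehicle, and at 15 weeks edgeR called 0 and DESeq2 1, with 2 genes at an unadjusted p under 0.05 in edgeR. Over all genes edgeR called 12% at 9 weeks and 11.3% at 15 weeks. The median mesenchyme sum was 237 and 236 CPM at 9 weeks and 74.1 and 85.1 at 15 weeks, in females and males. Female 9-week replicate 5, which was high in the tuft cell genes for its group, had a proximal sum of 6260 and a mesenchyme sum of 60.4 CPM, against 1550 to 2610 and 202 to 327 in the other 4 libraries. Beyond the mesenchyme covariate fits and the correlations given above, the part of either sum in the tuft cell values was not tested.

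**Figure D4:**
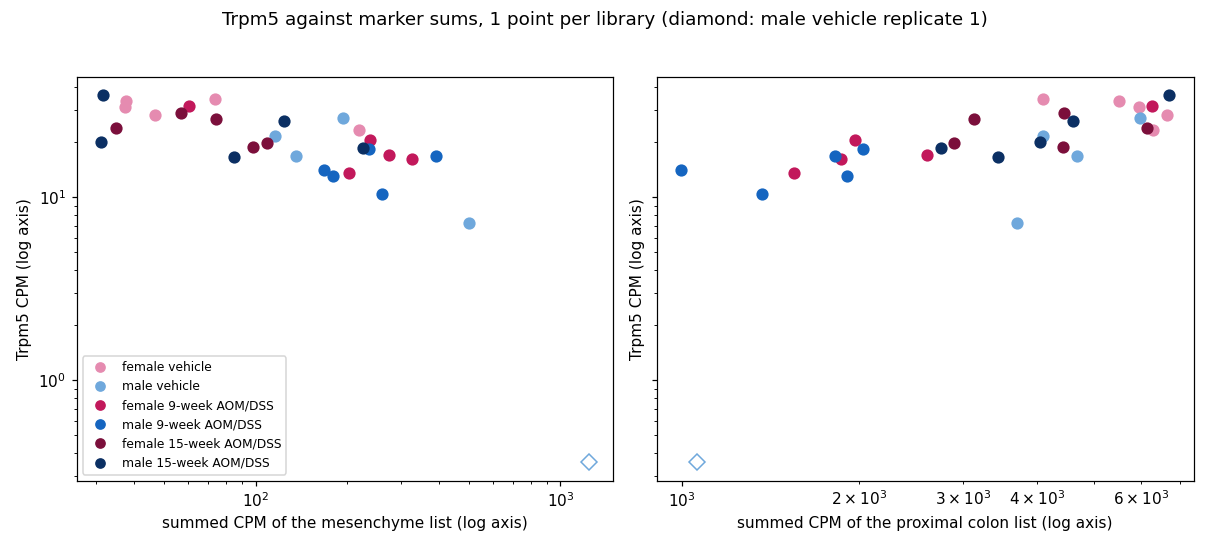
Each point is 1 library, with Trpm5 CPM against the summed CPM of 10 mesenchyme genes (left) and of 8 proximal colon genes (right), all on log axes, coloured by group. Trpm5 falls as the mesenchyme sum rises and rises with the proximal sum, and male vehicle replicate 1, the open diamond, lies alone at 0.356 CPM.

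Other genes of the tuft cell programme mostly gave no call either, and the same was true of all genes. Of all genes edgeR called 12% at 9 weeks, 11.3% at 15 weeks and 4.32% from 9 to 15 weeks. Of 8 tested genes of taste-type signalling, 0 were called by edgeR or DESeq2 in any of the 3 comparisons with the sexes averaged. Ffar3 and Itpr3 had an unadjusted p under 0.05 in edgeR at 15 weeks and, with Rgs13, from 9 to 15 weeks. Of 6 eicosanoid and histamine enzymes, Hdc, which makes histamine in several cell types, rose at 9 weeks (4.53 ± 0.78, adjusted p = 0.000178) and fell from 9 to 15 weeks by 3.41 on the log2 scale (adjusted p = 0.0135). Hpgds, a prostaglandin D synthase, fell at 9 and 15 weeks (-0.58 and -0.65, adjusted p = 0.0349 and 0.0213), but it had 45.3 CPM in male vehicle replicate 1 and neither call was made without it (-0.35 and -0.42, adjusted p = 0.106 and 0.0578), although Hpgds was still called lower in males at 9 weeks. Of 20 other tuft cell markers tested, the Il13 receptor subunit Il13ra1 rose at 9 weeks (0.63 ± 0.15, adjusted p = 0.00472) and the keratin Krt18, which other epithelial cells share, at 15 weeks (0.56 ± 0.13, adjusted p = 0.00525). Without male vehicle replicate 1, Sh2d7 (-0.69, adjusted p = 0.0194) and Rgs13 (-0.65, adjusted p = 0.0438) were called lower at 9 weeks, both named after their values were seen.

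Of 8 tested genes of the type 2 response that tuft cells can call up, 4 were called at 9 weeks, against 12% of all genes, and rose, namely Il4ra, a receptor subunit for Il4 and Il13 (1.59 ± 0.16, adjusted p = 1.33e-07), the transcription factor Gata3 (4.08 ± 0.59, adjusted p = 1.68e-05), the Il33 receptor Il1rl1 and the growth factor Areg. At 15 weeks 3 rose, Gata3, Areg and Il4ra, against 11.3% of all genes called. From 9 to 15 weeks Il4ra fell by 0.53 (adjusted p = 0.0483). These calls at 9 and 15 weeks were also made without male vehicle replicate 1. The other tested genes of this list, Il33, Retnlb, Clca1 and Ccl11, were not called at either time. Il4, Il5 and Il13 themselves were at 0 counts in 23, 24 and 26 of the 30 libraries and were not tested. Of 6 mast cell genes tested, the proteases Mcpt1, Mcpt2 and Cpa3 rose at both times, against the same shares of all genes. Mcpt1 was 4.58 ± 0.74 higher at 9 weeks (adjusted p = 8e-05). Kit, the receptor that other cells of the colon wall also carry, was at -0.45 at 9 weeks (adjusted p = 0.0566) and was called lower without male vehicle replicate 1 (-0.53, adjusted p = 0.0141), a gene named after its values were seen.

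Markers of other cells moved with the same contrasts. At 9 weeks against vehicle 6 of 7 neutrophil, 7 of 8 T cell and 3 of 9 macrophage genes tested rose, and at 15 weeks 2 of the neutrophil and 1 of the T cell genes. Of all genes, 12% were called in either direction at 9 weeks and 11.3% at 15 weeks. The counts without male vehicle replicate 1 were 6 neutrophil, 7 T cell and 6 macrophage genes at 9 weeks, and at 15 weeks 2 neutrophil and 2 T cell genes. Smooth muscle genes fell at 15 weeks in 8 of 8 and mesenchyme genes in 4 of 10, but without male vehicle replicate 1 these counts were 0 and 1. Beyond the mesenchyme covariate fits and the correlations given above, the part of these changes in the levels of the 9 tuft cell genes was not tested.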

How the data were processed

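Poly-A RNA from colon scrapes of 30 mice was made into libraries with a strand-keeping kit. Per the labels and the study's methods, the authors trimmed reads (Trim Galore), aligned them to mm10 with STAR and counted them per gene with featureCounts, giving the deposited raw counts of 46078 genes. The authors' FPKM and TPM values come from StringTie tables of each library, with 11 to 20 repeated lines per table, which were summed for TPM, and 6 genes missing from at least 1 table. The authors' processing notes also name CASAVA and bcl2fastq 2.20.0.422. The counting's strand setting is not given in the sources used here.

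Genes were filtered with filterByExpr (16261 kept) and scaled by TMM (factors 0.832 to 1.1). edgeR 4.0.16 in R 4.3.3 fitted 1 coefficient per group over the 30 libraries, with quasi-likelihood tests of 12 contrasts and Benjamini-Hochberg adjustment over all genes tested. The common biological coefficient of variation was 0.319. The fitting was tested on simulated counts. Depth was 9265804 to 30806392 counts per library, and differences in genes of a few counts are imprecise for that reason. Correlations used log2 CPM with a prior count of 2 and permutation tests with 100000 resamples, two-sided, adjusted over the 36 pairs of members and over the 171 relations of members with summed marker lists. Standard errors are those of the fit.

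Alternatives were RLE factors, DESeq2 1.42.0, no filter on low counts, a mean FPKM of at least 1, no fold threshold, the compared libraries alone, the replicate number as a block, a mesenchyme covariate and leaving out each library. Leaving out 2 libraries at once and limma 3.58.1 on log2(TPM + 0.1) were added after the data were seen. All 9 members were named. From other lists, called genes of the 3 comparisons with the sexes averaged were named, at most 2 per direction, list and comparison by smallest adjusted p, and also the 5 genes nearest to the members' mean pattern. Other genes named were chosen after their values were seen. The members and lists were chosen with earlier results of these data known.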

Additional observations from a re-analysis of the deposited data

Results flagged for a closer look

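Of 54 sets of 5 libraries, 1 per gene and group, 1 held a library far from the others by Dixon's criterion. This was Ltc4s, which makes leukotriene C4, in female vehicle replicate 4, at 1.25 log2 CPM against a group median of 0.67. Its gap to the nearest library was 0.712 of the group's range, against a critical value of 0.71 for 5 libraries. Chance alone marks about 1 in 20 groups. Male vehicle replicate 1 did not pass this criterion in any of the 9 genes, although it was the lowest library for 7 of them.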

How the results depend on the processing

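The number of members called was the same in 282 of 302 recomputations over the 12 comparisons. The exceptions lay in 3 comparisons. In males at 15 weeks, where 1 member was called, 0 were called with no filter on low counts, with the replicate block, with the mesenchyme covariate, with the compared libraries only and by limma on log2 TPM, DESeq2 called 2, and leaving out libraries gave 0 to 3. At 9 weeks with the sexes averaged leaving out libraries gave 0 to 1 calls, and from 9 to 15 weeks 0 to 2. Of the directions given for members with the sexes averaged, Trpm5 at 9 weeks turned to 0.06 with the mesenchyme covariate and 0.36 on TPM, and at 15 weeks to -0.15 with the covariate, with a range of -0.12 to 0.34 when libraries were left out. From 9 to 15 weeks Dclk1 turned to -0.19 with the covariate and -0.07 on TPM, Trpm5 to -0.22 and -0.08, and Alox5 to -0.02 on TPM. The cause was not tested. Over all genes, the 2032 calls in males at 15 weeks became 811 without male vehicle replicate 1 and 212 with the compared libraries only, and the 703 from 9 to 15 weeks became 10255 on TPM, 1190 by DESeq2 and 0 with the covariate. Those between the sexes in vehicle mice went from 41 to 11 without male vehicle replicate 1 and to 816 by DESeq2. Replicate numbers in different groups did not pair the mice: over 75 pairs of libraries with the same number the correlation of deviations from the group mean was -0.581 to 0.467, with a median of -0.0262, and 12 exceeded 0.1. The replicate block changed no other count of members called. At the depth of these libraries Il25, Gfi1b and Chat gave few counts and correspondingly large errors.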
